A study of Rattus norvegicus with 2 samples.

Results

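Interleukin 33 (Il33) and 7 genes that act downstream of it or beside it were followed through dissociated rat lung cells from 1 explosion library and 1 control library. The 8 genes were chosen by symbol (Il33, Il1rl1, Gata3, Il2ra, Il5, Il13, Il4 and Areg), and all 8 were found among the 42172 genes of the deposited matrices. Lung tissue for the explosion library was taken after a gas blast, that for the control library without one, and all rats were kept free of specific pathogens. The labels give neither the strain, sex or age nor the time after the blast, nor how many animals went into a library. Lungs were digested with collagenase and papain, red cells were lysed and dead cells removed with beads, and the cells were captured in droplets with the 10x 3' kit v3, which counts each captured transcript once through its unique molecular identifier (UMI). With 1 library per group there is no replicate check: no test was run, cells are not replicates, and every interval is a 95% exact interval that covers counting error only.

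The libraries differed in depth, which bears on every share of cells given here. The explosion library held 12642 barcodes and 9017416 UMIs, and the control library 21117 barcodes and 139486248 UMIs. After filtering, 11845 explosion cells with a median of 532 UMIs and 19231 control cells with a median of 4677 remained. Of the kept cells, 69 barcodes occurred in both libraries. Levels are therefore given as UMIs of the gene scaled to the class total (CPM), and shares of cells with a UMI also after thinning each cell to 500 UMIs.

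IL-33 is an alarmin: it is stored in the nucleus of barrier and stromal cells and released when they are damaged. Outside the cell it binds ST2, the product of Il1rl1, together with the shared chain Il1rap, and signals through Myd88 in group 2 innate lymphoid cells (ILC2), mast cells, basophils, regulatory T cells and some macrophages. ILC2 and type 2 helper T cells depend on the transcription factor Gata3, carry the IL-2 receptor alpha chain Il2ra when activated, and can secrete IL-5, which drives eosinophils, IL-13, which acts on airway epithelium and smooth muscle, and the growth factor amphiregulin (Areg); IL-4 is made mainly by T helper cells and basophils.

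Promoter windows from RefSeq (assembly GRCr8, 250 bases before to 50 after a gene's start) were found for 7 of the 8 genes. The windows of the ligand and of its receptor are shown because the 2 genes were highest in different cell classes. Il33 has 2 annotated starts, at chr1:237115323-237115622 and chr1:237134696-237134995, both on the plus strand, and the window of Il1rl1 is chr9:50203388-50203687, also on the plus strand. Capitals mark matches to the GATA factor motif, searched on both strands as AGATAA or its variant AGATAG, and as TGATAA or its variant TGATAG.
Il33 upstream start: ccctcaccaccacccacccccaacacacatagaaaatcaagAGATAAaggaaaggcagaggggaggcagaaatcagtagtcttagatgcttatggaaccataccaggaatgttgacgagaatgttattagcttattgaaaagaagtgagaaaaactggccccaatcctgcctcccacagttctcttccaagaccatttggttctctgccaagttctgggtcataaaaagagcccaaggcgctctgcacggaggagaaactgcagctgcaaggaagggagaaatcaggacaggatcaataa
Il33 downstream start: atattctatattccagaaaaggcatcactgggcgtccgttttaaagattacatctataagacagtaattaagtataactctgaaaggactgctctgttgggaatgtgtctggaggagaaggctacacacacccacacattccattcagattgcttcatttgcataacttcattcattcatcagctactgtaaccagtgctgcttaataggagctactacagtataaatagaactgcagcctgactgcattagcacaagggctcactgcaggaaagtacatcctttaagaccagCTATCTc
Il1rl1: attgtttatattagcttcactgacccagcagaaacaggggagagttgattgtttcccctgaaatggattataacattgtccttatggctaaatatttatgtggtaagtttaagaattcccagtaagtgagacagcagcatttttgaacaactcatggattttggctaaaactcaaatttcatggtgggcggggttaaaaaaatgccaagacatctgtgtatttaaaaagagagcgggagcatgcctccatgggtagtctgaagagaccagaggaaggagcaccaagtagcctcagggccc
The motif lay 209 bases before the upstream start of Il33 and 44 bases after the downstream one, and these letters did not occur in the Il1rl1 window. Of the 7 genes with a window, 3 held the motif in one (Il33, Gata3 and Il5), and of all 33469 windows 30.3% did. In the same annotation the type 2 cytokine genes Il4, Il13, Rad50 and Il5 follow each other on chromosome 10, and Il1rl1 lies between Il1rl2 and Il18r1 on chromosome 9.

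Classes were built from clusters of both libraries together, with the 8 genes kept out of the genes used for clustering, and named from markers; each name means cells like that type. A class was compared where each library gave 50 cells or more, which held for 12 classes. Of these, the ILC2-like, blood endothelial-like, fibroblast-like and type 2 alveolar-like classes were each 1 cluster. The other 8 were made of several clusters, and in each of these the cluster with the most explosion cells was not the one with the most control cells. The ILC2-like cluster, with 166 explosion and 54 control cells (1.40% and 0.281% of kept cells), had 12 of 19 ILC2 markers. Lymphoid cells were clustered a second time, a step chosen after the data were seen. Without it the ILC2-like class held 7 explosion and 77 control cells, so which library had more of them depended on that step. The ILC2-like cluster held 88 and 68 UMIs of Hpgds, the prostaglandin D synthase of these cells, and 10 and 16 UMIs of the IL-25 receptor Il17rb. Its T cell gene Cd3e was at 82.0 CPM in the explosion and 33.4 CPM in the control cells, against 532 and 529.6 CPM in T-like cells. Its leading genes were Il1rl1, Gata3 and Il2ra, although these were kept out of the clustering. The 14 T cell markers summed to 1453 CPM in the explosion and 1034 CPM in the control cells of this cluster, the 14 mast and basophil markers to 46.9 and 16.7 CPM, and the 10 airway secretory markers to 10992 and 27658 CPM. The part of RNA from other cells in the results for this cluster was not tested. The mast cell genes Cpa3 and Tpsb2 and the ILC2 marker Ptgdr2 had 0 UMIs in it in both libraries. Mast and basophil-like cells were 1 in the explosion and 13 in the control library, too few to compare.

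Among the compared classes, Il33 was highest in blood endothelial-like and fibroblast-like cells in both libraries. The blood endothelial-like class also held lymphatic markers, which are given below. In the explosion library it was highest in blood endothelial-like cells, at 869.9 CPM (99 UMIs), then in fibroblast-like cells at 374 CPM (108 UMIs). Type 2 alveolar-like cells, which make surfactant, followed at 211 CPM (14 UMIs) and mesothelial-like cells, the covering layer of the lung, at 159.9 CPM (146 UMIs). In the control library the order of these 4 classes was the same, at 1265 CPM (457 UMIs), 1165 CPM (367 UMIs), 113 CPM (44 UMIs) and 105 CPM (295 UMIs). Neighbours in this order whose intervals overlapped were fibroblast-like with type 2 alveolar-like and type 2 alveolar-like with mesothelial-like cells in the explosion library, and endothelial-like with fibroblast-like and type 2 alveolar-like with mesothelial-like cells in the control library. Macrophage-like cells came next in both, at 21.4 CPM (47 UMIs) in the explosion and 38.7 CPM (2126 UMIs) in the control library.

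In the remaining classes Il33 stayed under 10 CPM where it was found, and B-like cells, which are not known to make it, serve as background. B-like cells held 7.17 CPM in the explosion and 9.96 CPM in the control library. T-like cells held 7.99 and 6.18 CPM, NK-like cells 9.99 and 3.39 CPM, and monocyte-like cells 8.95 and 3.77 CPM. Among airway epithelium, secretory-like cells held 8.06 CPM (8 UMIs) in the explosion and 2.92 CPM (110 UMIs) in the control library and ciliated-like cells 6.28 and 4.30 CPM. ILC2-like cells had 0 Il33 UMIs in the explosion library, which allows up to 35.2 CPM, and 1 UMI in the control library. In the explosion library the intervals of both airway epithelial classes overlapped that of B-like cells; in the control library that of ciliated-like cells did too, while secretory-like cells lay below B-like cells. Type 2 alveolar-like cells lay above B-like cells in both libraries.

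**Figure D1:**
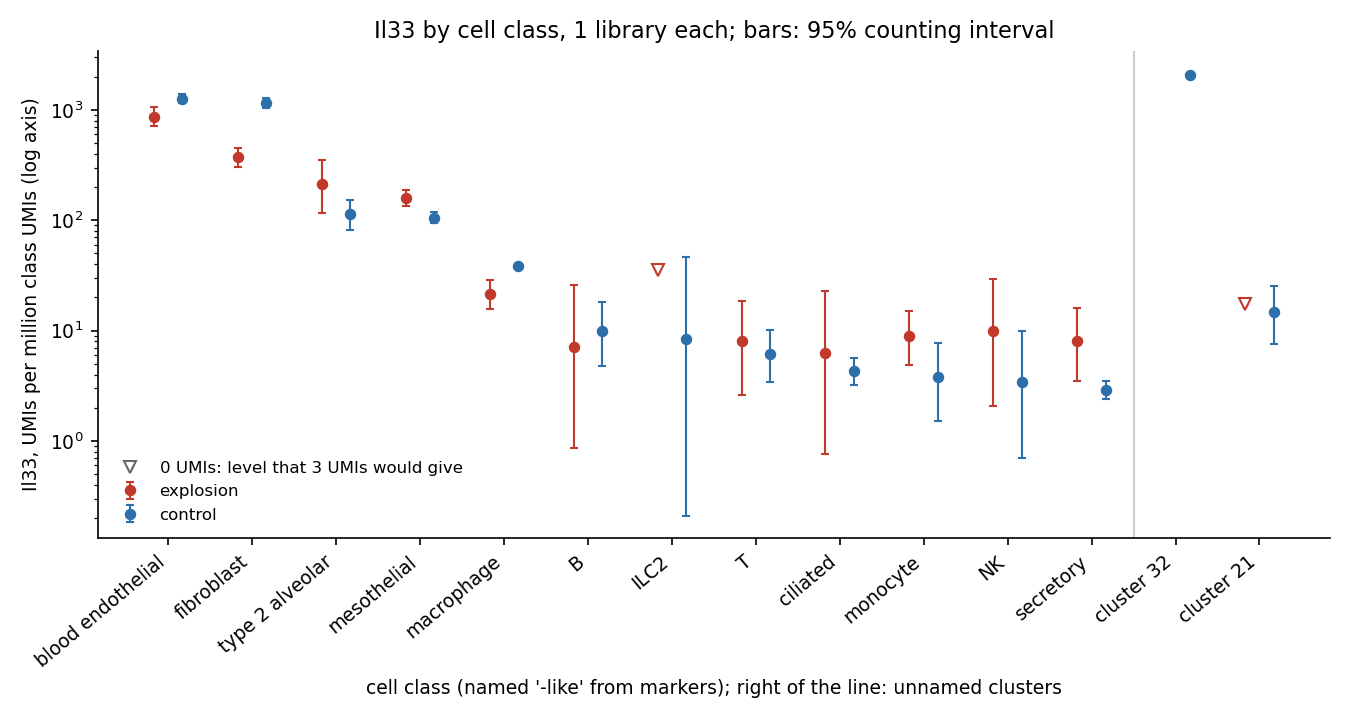
Il33 as CPM of each class (log axis), explosion left of control, for the 12 compared classes and 2 unnamed clusters; bars are 95% counting intervals and open triangles mark the level 3 UMIs would give where none was found. Blood endothelial-like and fibroblast-like cells lead the classes in both libraries, and cluster 32, with 2054 CPM, holds control cells only in this clustering.

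Summed over each of the 2 leading classes, Il33 was lower in the explosion library, and in endothelial-like cells this direction turned within finer clusters. In fibroblast-like cells the level of 374 CPM (307 to 451) in the explosion library was 0.321 times (0.257 to 0.399) that of 1165 CPM (1048 to 1290) in the control library. In blood endothelial-like cells 869.9 CPM (707 to 1059) in the explosion library was 0.688 times (0.548 to 0.856) the control level of 1265 CPM (1152 to 1386). The intervals of the 2 libraries did not overlap in either class. In fibroblast-like cells the fold passed 2, as it did for 13.1% of all genes in the lower direction; in endothelial-like cells it did not. With doublets kept, the endothelial log2 ratio was -0.21 with an interval of -0.53 to 0.10 that includes 0. Relative to the class median gene the ratio was 0.269 in fibroblast-like and 0.409 in endothelial-like cells. In type 2 alveolar-like cells the ratio was 1.86, with an interval of 0.943 to 3.46 that includes 1.

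Finer clusters (Leiden resolution 2, read singly as a choice made after the data were seen) divided each of the 2 classes in unequal parts of the libraries. One endothelial cluster held 222 explosion and 74 control cells, with Il33 at 786 CPM (86 UMIs) and 323 CPM (67 UMIs), a ratio of 2.43 (1.75 to 3.40). The other held 6 explosion and 79 control cells, with Il33, here one of its leading genes, at 2976 CPM (13 UMIs) and 2537 CPM (390 UMIs), a ratio of 1.17 (0.619 to 2.03). The first interval lay above 1 and the second included 1, so the lower Il33 of explosion endothelial-like cells was seen in their sum and in neither finer cluster. In fibroblast-like cells nearly all Il33 lay in 1 finer cluster, where the direction was kept: its 181 explosion cells held 746 CPM (107 UMIs) and its 83 control cells 1282 CPM (366 UMIs), a ratio of 0.582 (0.464 to 0.723). The other fibroblast cluster, with 246 explosion and 25 control cells, held 1 Il33 UMI in each library. The fibroblast ratio was thus nearer to 1 within the Il33-bearing cluster than over the class.

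The sum of lymphatic endothelium markers was lower in the explosion library over the endothelial-like class. Most of its control UMIs were Ccl21 from 4 of 153 cells, and not every marker was lower. The 7 lymphatic markers summed to 1643 CPM in the explosion and 3861 CPM in the control cells, none of them at 0 in either library. The chemokine gene Ccl21 had 68 explosion UMIs in 8 of 228 cells and 1010 control UMIs in 4 of 153 cells. The hyaluronan receptor gene Lyve1 had 77 and 212 UMIs, and Prox1, the lymphatic transcription factor, 2 and 8. In the finer cluster of 222 explosion and 74 control cells the 7 markers summed to 1663 and 62.6 CPM, and in the other to 1144 CPM (5 UMIs) and 8989 CPM. Of the 1382 control UMIs in that other cluster, 1010 were Ccl21 in 4 of 79 cells. The part of these markers in the Il33 difference was not tested.

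The share of cells with an Il33 UMI was lower in the explosion library in both classes. Of the explosion fibroblast-like cells 14.3% (11.1 to 18.0) held one, against 62.0% (52.2 to 71.2) of the control fibroblast-like cells. With cells thinned to 500 UMIs, which left 283 of 427 explosion and 108 of 108 control cells, the shares were 14.8% (10.9 to 19.5) and 25.9% (18.0 to 35.2). Endothelial-like cells gave 28.1% (22.3 to 34.4) in the explosion and 66.0% (57.9 to 73.5) in the control library, and thinned 32.5% (22.6 to 43.7) and 52.9% (44.7 to 61.1), with 83 of 228 and 153 of 153 cells deep enough. The gap in shares was smaller at equal depth, and in fibroblast-like cells the thinned intervals overlapped. The log2 ratio of the thinned counts in fibroblast-like cells was -0.77, against -1.64 for all counts. In endothelial-like cells it went the other way, to -1.02, against -0.54 for all counts. B-like cells gave 0.259% and 1.10% unthinned, at median depths of 320 and 1159 UMIs. The log2 ratio of the median gene was 0.26 for fibroblast-like and 0.75 for endothelial-like cells, and some genes were lower as Il33 was. The collagen gene Col1a1 was at 12109 CPM in the explosion and 8380.5 CPM in the control fibroblast-like cells, while Dcn, which encodes the matrix proteoglycan decorin, was at 4922 and 12610.3 CPM. The endothelial adhesion gene Pecam1 was at 2126 and 949 CPM in the endothelial-like cells.

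**Figure D2:**
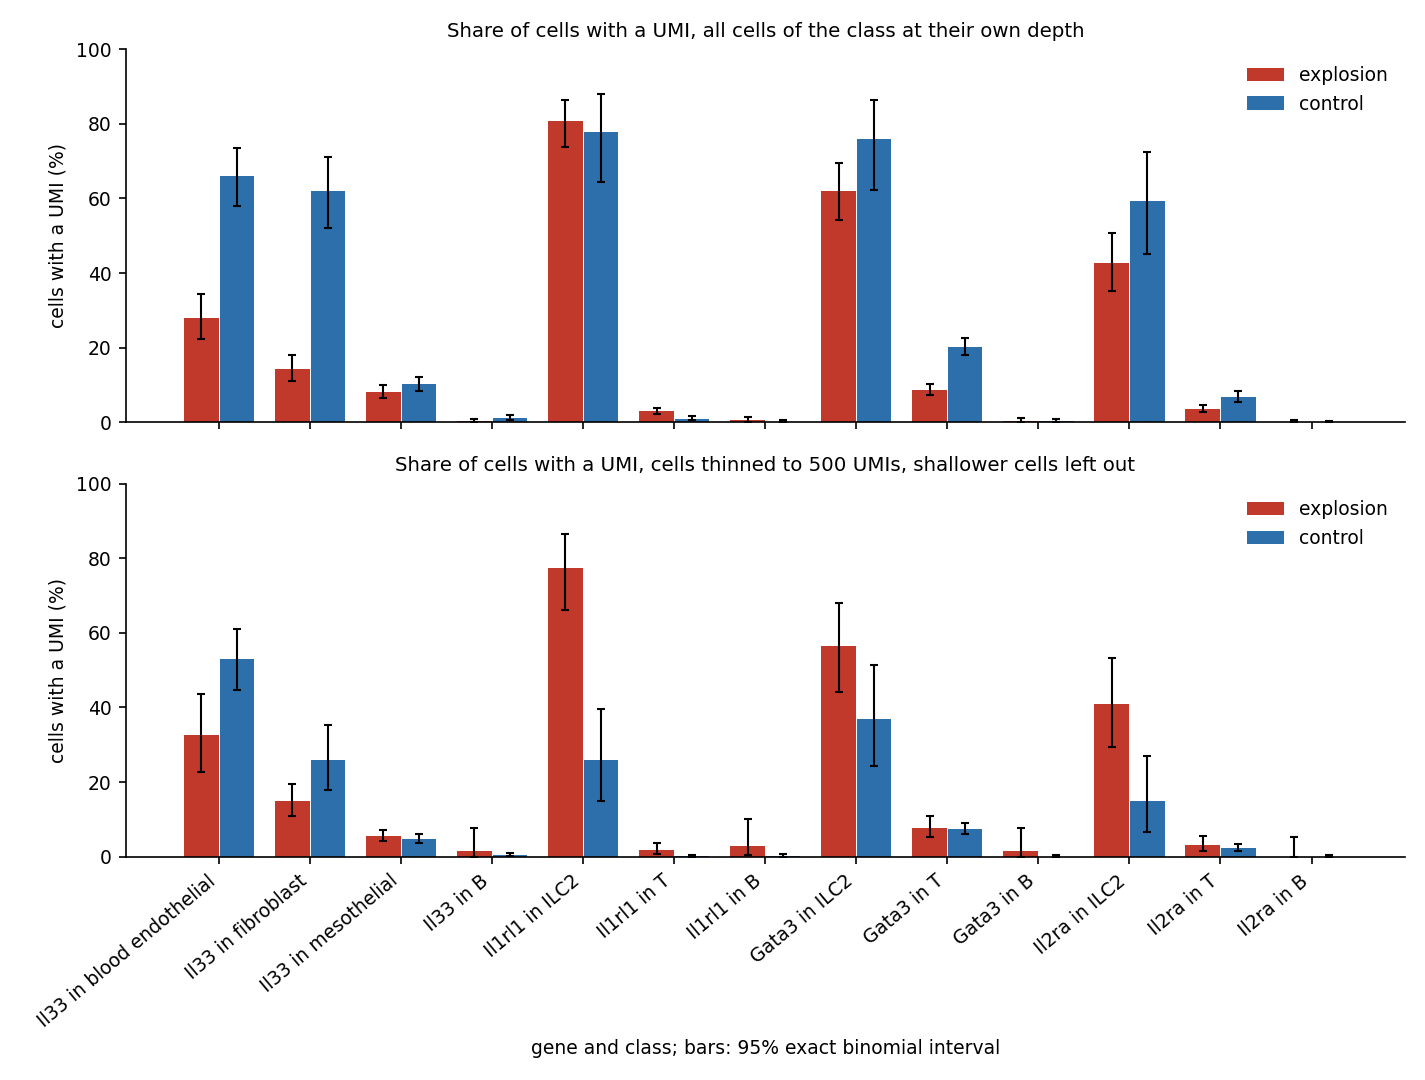
Share of cells with a UMI (%) of Il33, Il1rl1, Gata3 and Il2ra in named classes, explosion left of control; bars show 95% exact binomial intervals. The upper panel uses each cell's own depth and the lower one cells thinned to 500 UMIs, where Il33 in fibroblast-like cells stands at 14.8% and 25.9% and Il1rl1 in ILC2-like cells at 77.5% and 25.9%.

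Mesothelial-like cells gave a ratio that turned with the clusters counted. Over the class, Il33 was at 159.9 CPM (135 to 188) in the explosion and 105 CPM (93.7 to 118) in the control library, a ratio of 1.52 (1.24 to 1.86). But 1013 of the 1029 explosion cells lay in cluster 9 and 1044 of the 1091 control cells in cluster 8. Within cluster 9 the level was 161 CPM (145 UMIs) in the explosion and 406 CPM in the 47 control cells, a ratio of 0.397 (0.257 to 0.640). That control level came from 24 UMIs in 8 cells, with up to 9 in 1 cell. Within cluster 8 it was 66.6 CPM (1 UMI) and 98.9 CPM, a ratio of 0.674 (0.0170 to 3.79). Cluster 9 had the opposite direction to the sum, but from few control cells, while the interval in cluster 8 includes 1.

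A further cluster, number 32, held 97 control cells and no explosion cell, and at the resolution used here it had the highest Il33 level of any cluster with at least 30 Il33 UMIs. Its 1451 Il33 UMIs made 28.9% of all Il33 UMIs of the control library, at 2054 CPM (1949.7 to 2162.5), and 93.8% of its cells held at least 1, with up to 82 in a single cell. It stayed unnamed. It had 9 of 10 mesothelial markers, with Msln at 2509.9 CPM and Upk3b at 1129.6 CPM, together with the collagen Col3a1 at 8077 CPM and the secreted phospholipase Pla2g2a at 8208 CPM, its leading gene. Counting it as mesothelial-like, a choice made after its values were seen, gave a mesothelial log2 ratio of -1.64 in place of 0.60. At resolution 2 all 97 cells fell in a cluster with the same leading gene that also held 64 explosion cells and 5 further control cells. These explosion cells and further control cells all came from mesothelial cluster 9, the latter being 5 of its 47 control cells. The explosion library thus held cells that group with these when the clusters are drawn finer, and their Il33 level was above that of the mesothelial-like class. This finer cluster had 1029 CPM (63 UMIs, 43.8% of cells) in the explosion and 2048 CPM (91.2% of cells) in the control library, a ratio of 0.503 (0.384 to 0.647).

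Macrophage-like cells held the largest share of control Il33 UMIs, 42.4%, against 10.4% of the explosion ones, and made up 8809 of the 19231 control cells. Their CPM was 0.553 times (0.405 to 0.738) as high in the explosion library, or 0.350 times relative to the class median. The libraries lay mostly in different macrophage clusters, and the part of this in the ratio was not tested. Cluster 2 held 1677 of 1972 explosion cells and cluster 0 held 6772 of 8809 control cells. Within the 6 macrophage clusters with UMIs in both libraries the ratio was above 1 in 4 and below 1 in 2, and every interval included 1. The highest control level was in cluster 6, led by Fabp4, Trem2 and Gpnmb, at 95.8 CPM (985 UMIs, 43.9% of 1175 cells), where the explosion level was 94.6 CPM (4 UMIs in 28 cells). Cluster 0 stood at 25.3 CPM in the control library. Msln, a mesothelial gene that macrophages lack, was at 7.29 CPM in the explosion and 8.17 CPM in the control macrophage-like cells, next to 1185 and 2575 CPM in mesothelial-like cells.

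**Figure D3:**
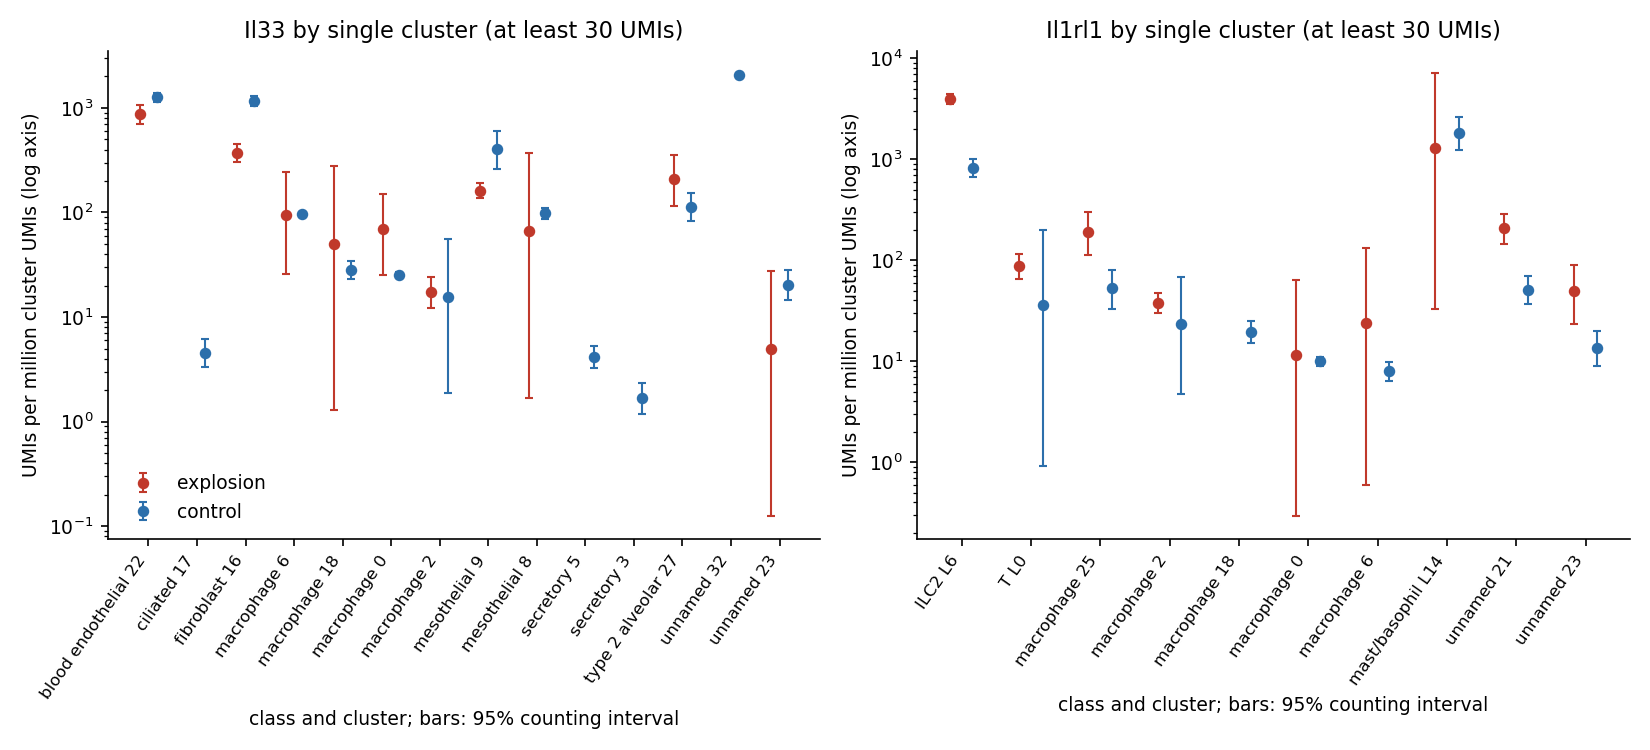
Il33 (left) and Il1rl1 (right) as CPM (log axis) for each cluster with at least 30 UMIs, explosion left of control, with 95% counting intervals; libraries with no UMI in a cluster have no point. Mesothelial cluster 9 shows 161 CPM in explosion and 406 CPM in control, and ILC2-like cluster L6 shows the highest Il1rl1 of the explosion library, 3973 CPM.

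Among the compared classes, the receptor gene Il1rl1 had its highest level in ILC2-like cells in both libraries, and it was higher there in the explosion library. ILC2-like cells held 3973 CPM (3561 to 4419; 339 UMIs in 166 cells) in the explosion library and 817 CPM (663 to 996; 98 UMIs in 54 cells) in the control library, a ratio of 4.86 (3.87 to 6.15). A UMI was found in 80.7% (73.9 to 86.4) of explosion and 77.8% (64.4 to 88.0) of control ILC2-like cells although the explosion cells were shallower, with medians of 480 and 1980 UMIs. Thinned to 500 UMIs, 77.5% (66.0 to 86.5) of 71 explosion and 25.9% (14.96 to 39.7) of 54 control cells held one. Relative to the median gene of the class the ratio was 4.28. At least 2-fold higher in these cells were 31.6% of all genes.

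Il1rl1 was not higher in ILC2-like cells alone: of the 12 classes, 8 had Il1rl1 UMIs in both libraries, and in all 8 the ratio was above 1 with an interval above 1. The ratios ran from 4.15 in macrophage-like to 82.1 in secretory-like cells. Cells not known for the receptor were among them. B-like cells held 17.9 CPM (5 UMIs) in the explosion and 0.996 CPM (1 UMI) in the control library, secretory-like cells 13.1 CPM (13 UMIs) and 0.159 CPM (6 UMIs), and ciliated-like cells 18.8 CPM (6 UMIs) and 1.10 CPM (13 UMIs). The ILC2-like levels exceeded these by far in both libraries, while the low levels outside ILC2-like cells were higher in the explosion library as well, and the part of whatever they share in the ILC2-like result was not tested. Among the remaining classes, monocyte-like cells held 11.51 CPM in the explosion and 2.15 CPM in the control library and mesothelial-like cells 6.57 and 1.07 CPM. NK-like, endothelial-like and fibroblast-like cells held 4, 3 and 3 UMIs in the explosion library and 0 in the control library, and type 2 alveolar-like cells 0 and 2 UMIs. Over all kept cells Il1rl1 was at 72.4 CPM in the explosion and 6.86 CPM in the control library, and ILC2-like cells held 56.0% of its UMIs in the explosion library and 11.97% in the control library, where macrophage-like cells held 70.0%.

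In order of Il1rl1 level, T-like and then macrophage-like cells followed ILC2-like cells in the explosion library, with intervals that did not overlap; in the control library macrophage-like and then T-like cells followed, with overlapping intervals. Macrophage-like cells held 43.3 CPM (95 UMIs) in the explosion and 10.4 CPM (573 UMIs) in the control library, a ratio of 4.15 (3.30 to 5.16). Within the 5 macrophage clusters with UMIs in both libraries the ratio ran from 1.16 to 28.4, and the interval lay above 1 in 1 of them. In cluster 25, led by the complement genes C1qa, C1qc and C1qb, the level was 189.6 CPM (18 UMIs in 175 cells) in the explosion and 52.6 CPM (21 UMIs in 124 cells) in the control library. The unnamed cluster 21, led by MHC class II genes and holding 5 of 12 dendritic cell markers, had 208 CPM (36 UMIs) and 51.2 CPM (42 UMIs), a ratio of 4.06 (2.53 to 6.49). This cluster had 0 Gata3 UMIs in both libraries, so no cell with the ILC2 transcription factor was found in it. In control macrophage-like cells, 100 of the 1391 cells with an Il33 UMI also held an Il1rl1 UMI (7.19%), while 5.93% of all control macrophage-like cells held one.

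**Figure D4:**
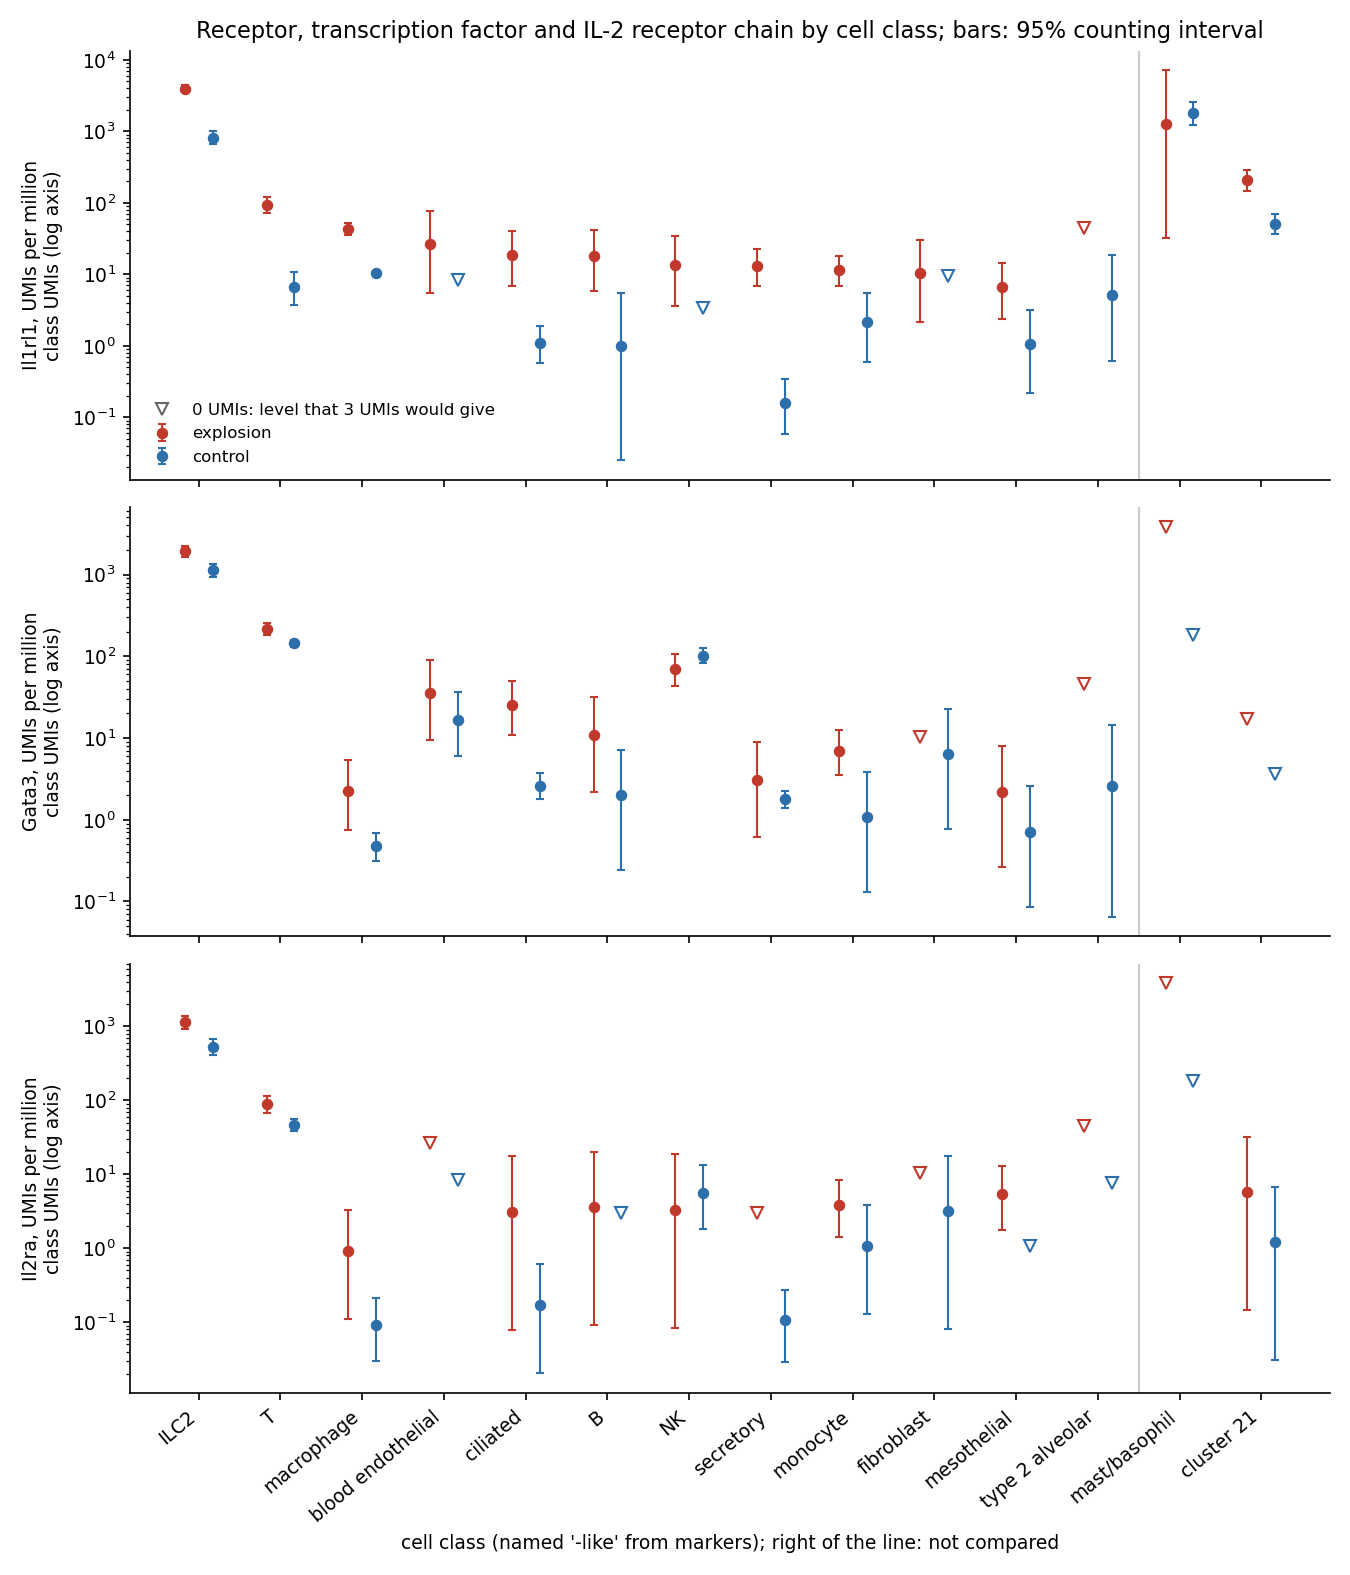
Il1rl1, Gata3 and Il2ra as CPM of each class (log axes), explosion left of control, with 95% counting intervals and open triangles for classes with 0 UMIs. ILC2-like cells lead the compared classes in every panel, and for Il1rl1 the explosion point stands above the control point in every compared class with UMIs in both libraries.

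In T-like cells Il1rl1 was at 94.2 CPM (59 UMIs in 41 of 1398 cells) in the explosion library and at 6.59 CPM (16 UMIs in 13 of 1279 cells) in the control library, a ratio of 14.3 (8.12 to 26.6). In cells with at least 500 UMIs its log2 was 2.78 (1.53 to 3.98), against 3.84 in all cells. Cluster L0 held 1301 of the explosion T-like cells but 26 of the control ones, and there the ratio was 2.45 (0.421 to 98.7). Cluster L3, with Icos among its leading genes, was present in both, with 260.2 CPM (7 UMIs in 52 cells) in the explosion and 29.3 CPM (14 UMIs in 243 cells) in the control library, a ratio of 8.87 (3.03 to 23.5). Of the 41 explosion T-like cells with Il1rl1, 14 held Gata3 and 8 held Il2ra; of the 13 control cells, 9 and 4 did. Foxp3, the regulatory T cell factor, was at 44.7 CPM in the explosion and 19.8 CPM in the control T-like cells. Hpgds, a marker of the ILC2-like cluster, was at 25.6 and 3.71 CPM in T-like cells, and the part of ILC2 cells left among T-like cells in this difference was not tested.

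Mast cells and basophils, the other classical ST2 carriers, were rare. The 1 explosion cell of the mast and basophil-like cluster held 1 Il1rl1 UMI, and all 13 control cells held Il1rl1, with 30 UMIs in all (1823 CPM, 1229.8 to 2602). Counting instead any cell with at least 2 of 13 mast and basophil markers gave 14 explosion cells with 7 Il1rl1 UMIs in 4 cells, and 35 control cells with 36 UMIs in 17 cells. None of the explosion cells and 3 of the control cells so counted held Gata3, and none held Il5, Il13 or Areg, while 2 control cells held Il4. With at least 3 markers, 9 explosion and 21 control cells held 7 and 35 Il1rl1 UMIs.

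Gata3 and Il2ra, the transcription factor and the growth factor receptor chain of the responder cells, were likewise highest in ILC2-like cells. Gata3 was at 1934 CPM (165 UMIs) in the explosion and 1126 CPM (135 UMIs) in the control ILC2-like cells, a ratio of 1.72 (1.36 to 2.17). Il2ra was at 1148 CPM (98 UMIs) and 534 CPM (64 UMIs), a ratio of 2.15 (1.55 to 3.00). Both intervals lay above 1, and both ratios were below that of Il1rl1 in the same cells. Without the second clustering of lymphoid cells, added after the data were seen, the ILC2-like log2 ratio was 1.48 for Gata3 and -1.11 for Il2ra, the second from 1 explosion UMI. Thinned to 500 UMIs, Gata3 was found in 56.3% of explosion and 37.0% of control ILC2-like cells and Il2ra in 40.8% and 14.8%. Other genes of the cluster were also higher in the explosion library: Rora, a transcription factor that ILC2 require, stood at 1664 CPM in explosion and 334 CPM in control cells, Hpgds at 1031 and 567 CPM, and Il17rb did not share this, at 117 and 133 CPM.

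The 3 genes were found together in single cells. Of the 134 explosion ILC2-like cells with an Il1rl1 UMI, 85 (63.4%) held Gata3 and 60 (44.8%) held Il2ra. Of the 42 control cells with Il1rl1, 35 (83.3%) held Gata3 and 23 (54.8%) held Il2ra. Deeper cells give more joint finds, so these shares are not comparable between the libraries.

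Outside the ILC2-like cluster, Gata3 was at 217 CPM (136 UMIs) in explosion and 145 CPM (351 UMIs) in control T-like cells, a ratio of 1.503 (1.22 to 1.84) that was 0.886 relative to the class median, so its direction depended on the scaling. In NK-like cells it was at 70.0 CPM (21 UMIs) and 102 CPM (90 UMIs), a ratio of 0.688 with an interval of 0.406 to 1.12 that includes 1. Il2ra in T-like cells was at 89.5 CPM (56 UMIs) in the explosion and 47.0 CPM (114 UMIs) in the control library, a ratio of 1.91 (1.36 to 2.65), or 1.12 relative to the class median. In cells with at least 500 UMIs, both T-like intervals included no difference, with log2 ratios of 0.26 (-0.24 to 0.73) for Gata3 and 0.19 (-0.76 to 1.02) for Il2ra. In cluster L0 the Gata3 ratio was 1.16 (0.485 to 3.65) and in cluster L3 it was 1.95 (1.04 to 3.40). In the unnamed cluster L11, led by the chemokine receptor Ccr6, Il2ra had 1 UMI in 18 explosion and 17 UMIs in 33 control cells, and Il1rl1 had 0 in both. In the remaining compared classes Gata3 stayed at or below 35.1 CPM and Il2ra at or below 5.65 CPM in both libraries. Ciliated-like cells held 25.1 CPM of Gata3 (8 UMIs) in the explosion and 2.61 CPM (31 UMIs) in the control library.

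The type 2 cytokine genes were hardly found. Il5 had 0 UMIs in the explosion library and 5 in the control library, 4 of them in 4 ILC2-like cells and 1 in a T-like cell. All 4 of these ILC2-like cells also held Il1rl1 and Gata3, and 3 held Il2ra. In ILC2-like cells this was 33.4 CPM (9.09 to 85.4) in the control library, and a count of 0 in the explosion library allows up to 35.2 CPM, so a difference was not detectable at this depth. Il13 had 0 UMIs in both libraries, which allows up to 35.2 CPM in explosion and 25.01 CPM in control ILC2-like cells. Il4 had 0 UMIs in the explosion library and 4 in the control library, 2 in NK-like and 2 in macrophage-like cells.

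Areg, the epidermal growth factor receptor ligand that ILC2, regulatory T cells and epithelium can make, was not found in ILC2-like cells in either library. It had 27 UMIs in the explosion and 162 in the control library. Its highest levels were in type 2 alveolar-like cells, at 30.1 CPM (2 UMIs) in the explosion and 36.0 CPM (14 UMIs) in the control library, and in monocyte-like cells, at 8.95 CPM (14 UMIs) and 15.6 CPM (29 UMIs). The monocyte ratio was 0.573 (0.280 to 1.12). In secretory-like cells it was at 5.04 CPM (5 UMIs) and 1.52 CPM (57 UMIs), a ratio of 3.33 (1.04 to 8.22), which was 1.05 relative to the class median. T-like cells held 4 UMIs in the explosion and 8 in the control library.

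The 8 genes were read against all genes of the same class, since many genes differed by 2-fold or more in these libraries. In ILC2-like cells 2 of the 3 genes with at least 10 UMIs were at least 2-fold higher in the explosion library (Il1rl1 and Il2ra), where 31.6% of all genes were. In fibroblast-like cells the single gene with 10 UMIs, Il33, was at least 2-fold lower, as were 13.1% of all genes. In T-like cells 2 of 5 were higher (Il1rl1 and Areg; 38.2% of all genes), in macrophage-like cells 3 of 4 (Il1rl1, Gata3 and Areg; 41.0%), in monocyte-like cells 3 of 4 (Il33, Il1rl1 and Gata3; 28.0%), in secretory-like cells 3 of 4 (Il33, Il1rl1 and Areg; 64.7%), in ciliated-like cells 2 of 3 (Il1rl1 and Gata3; 49.4%) and in endothelial-like cells 1 of 2 (Gata3; 25.8%). These calls add 0.5 counts to each sum, which raises the ratio of sparse genes where the explosion total is much the smaller. In secretory-like cells the totals were 992293 explosion and 37620258 control UMIs. There a gene with 10 UMIs, all in the control library, could not be called lower. The shares of all genes called thus depend on depth as well. Areg passed only with that addition in T-like and macrophage-like cells, where its plain ratios were 1.94 (0.427 to 7.24) and 1.67 (0.193 to 6.58). Il33 in monocyte-like cells (14 and 7 UMIs) had a log2 ratio of 1.25 with an interval of -0.16 to 2.80 that includes 0. With doublets kept it was -0.61. Gata3 in endothelial-like cells (4 and 6 UMIs) had a ratio of 2.12 with an interval of 0.439 to 8.93 that includes 1. B-like, NK-like, mesothelial-like and type 2 alveolar-like cells had no call in either direction. With 1 to 5 genes per class, a share of higher calls near the background is no result about these genes. The lower Il33 of fibroblast-like cells was the only call in the lower direction. The share of all genes called lower was 12.5% in ILC2-like, 7.05% in T-like, 7.2% in macrophage-like, 9.14% in monocyte-like, 3.37% in secretory-like, 7.64% in ciliated-like, 17.4% in endothelial-like, 9.74% in B-like, 8.54% in NK-like, 12.0% in mesothelial-like and 14.8% in type 2 alveolar-like cells. Called higher were 30.3% of all genes in B-like, 29.0% in NK-like, 31.2% in mesothelial-like, 41.6% in type 2 alveolar-like and 28.9% in fibroblast-like cells.

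**Figure D5:**
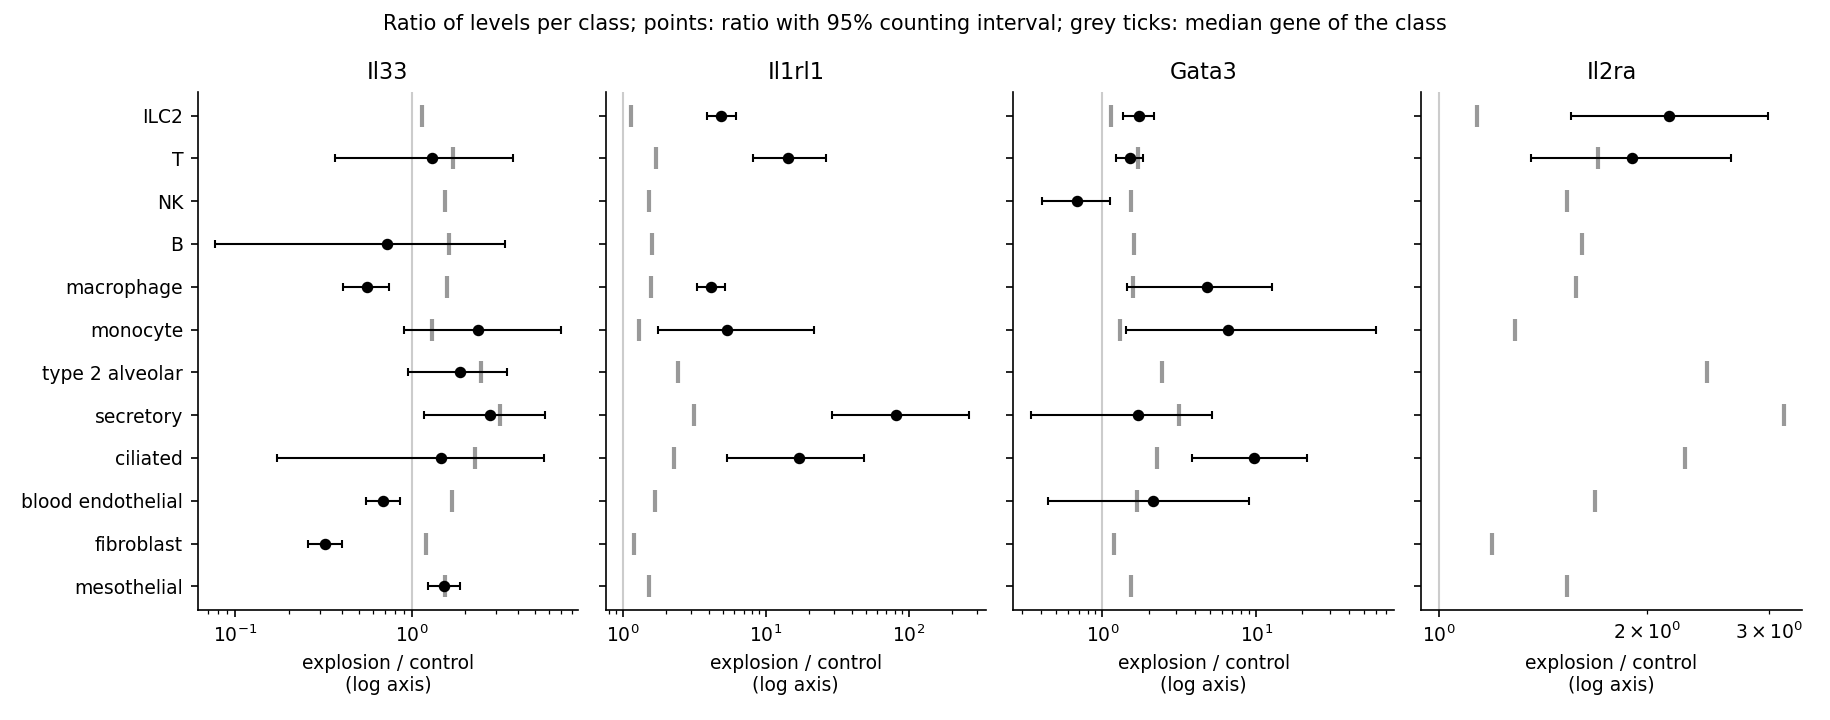
Ratio of levels, explosion over control (log axes), for Il33, Il1rl1, Gata3 and Il2ra in the 12 compared classes where both libraries had UMIs and together at least 10; bars are 95% counting intervals, grey ticks the median gene of the class. Il33 in fibroblast-like, endothelial-like and macrophage-like cells lies left of 1, and every Il1rl1 point lies right of both 1 and the class median.

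The rest of the pathway was read from gene lists, and the ratios of single genes below are not scaled to the class median. The median gene was itself higher in the explosion library in all 12 classes. Its log2 ratio ran from 0.18 in ILC2-like to 1.66 in secretory-like cells. A ratio above 1 is thus not by itself higher than that of the median gene. Of the 15 genes of IL-33 receptor signalling, from the co-receptor Il1rap to NF-kappaB, 8 to 15 had at least 10 UMIs in a class, and their median log2 ratio lay above that of all genes in each of the 12 classes, by 0.16 to 0.55. With no minimum on UMIs it lay above in 2 classes and below in 9, so this direction rests on that limit. The 0.5 counts added to each sum enter the list medians and those of all genes alike, and raise sparse genes most. In ILC2-like cells 8 of them had at least 10 UMIs, 3 were at least 2-fold higher and 0 lower, where 31.6% of all genes were higher and 12.5% lower. The co-receptor Il1rap was at 63.8 CPM in explosion and 20.9 CPM in control macrophage-like cells, a ratio of 3.05 (2.54 to 3.64). Irak3, a brake on the Myd88 pathway, was at 344 CPM in explosion and 126 CPM in control B-like cells, a ratio of 2.74 (2.08 to 3.60), and the adaptor Tab2 at 443 and 235 CPM in NK-like cells, a ratio of 1.88 (1.505 to 2.35). The kinase genes Irak4 in monocyte-like cells and Ikbkb in fibroblast-like cells had the lowest ratios, 0.818 (0.500 to 1.32) and 0.788 (0.355 to 1.70), with intervals that include 1.

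Other alarmin genes differed both ways in macrophage-like cells. Il18 was at 530.1 CPM (1164 UMIs) in the explosion and 1310.4 CPM (72012 UMIs) in the control library, a ratio of 0.405 (0.381 to 0.429), and Il1a was at 26.9 and 11.3 CPM, a ratio of 2.37 (1.79 to 3.10). Il7r, the receptor chain through which IL-7 and TSLP maintain ILC2, was at 855 CPM in explosion and 500.3 CPM in control ILC2-like cells, a ratio of 1.71 (1.20 to 2.45). The TSLP receptor Crlf2 had a ratio of 0.820 (0.720 to 0.930) in macrophage-like cells.

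Among type 2 receptors, the decoy receptor Il13ra2 was at 32.9 CPM in explosion and 16.8 CPM in control mesothelial-like cells, a ratio of 1.96 (1.20 to 3.16), and the kinase Tyk2 at 94.6 and 33.4 CPM in monocyte-like cells, a ratio of 2.83 (2.09 to 3.88). Cish, a target and inhibitor of Stat5, had a ratio of 0.664 (0.464 to 0.931) in mesothelial-like cells and the kinase Jak1 one of 0.803 (0.648 to 0.988) in NK-like cells. Among type 2 response genes, the eosinophil chemokine Ccl11 was at 48.5 CPM in explosion and 178 CPM in control fibroblast-like cells, a ratio of 0.273 (0.140 to 0.496). In the same cells 6 genes of this list had at least 10 UMIs, of which 4 were at least 2-fold lower and 1 higher, where 13.1% of all genes were lower and 28.9% higher. Thus Il33 and Ccl11 were both lower in explosion fibroblast-like cells. Retnla was at 1009.9 CPM in explosion and 324 CPM in control type 2 alveolar-like cells, a ratio of 3.11 (2.28 to 4.22), and Mrc1, the mannose receptor of alternatively activated macrophages, had a ratio of 1.67 (1.63 to 1.72) in macrophage-like cells. The Mrc1 ratio was near that of the median gene of macrophage-like cells, whose log2 ratio was 0.66. Pdcd1lg2 had a ratio of 0.276 (0.0541 to 0.883) in NK-like cells, from 3 explosion and 32 control UMIs.

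Receptors of the epidermal growth factor family were measured where Areg itself was sparse. Egfr, to which amphiregulin binds, was at 245 CPM in explosion and 80.7 CPM in control mesothelial-like cells, a ratio of 3.04 (2.52 to 3.67), and Erbb4, which binds other ligands of the family, at 27.2 and 4.41 CPM in secretory-like cells, a ratio of 6.17 (3.95 to 9.30). Adam17, the protease that sheds these ligands, had a ratio of 1.59 (1.44 to 1.74) in macrophage-like cells, near the median gene of that class, and Hbegf one of 1.53 (0.748 to 3.00) in endothelial-like cells. Of the regulatory T cell genes, Ikzf2 was at 182 CPM in explosion and 32.1 CPM in control T-like cells, a ratio of 5.67 (4.21 to 7.66), while Icos had a ratio of 1.13 (0.894 to 1.42) there. Lrrc32 in endothelial-like cells had a ratio of 4.05 (2.42 to 6.83) and Tnfrsf18 in NK-like cells one of 0.402 (0.231 to 0.660). Of the other helper genes, Il17a had 2 UMIs in explosion and 76 in control T-like cells, a ratio of 0.102 (0.0121 to 0.382), Il12rb2 in NK-like cells had a ratio of 2.70 (2.07 to 3.53), Stat3 in endothelial-like cells one of 1.63 (1.05 to 2.49) and Cxcr3 in NK-like cells one of 0.590 (0.201 to 1.44). The Stat3 ratio was near that of the median gene of its class, whose log2 ratio was 0.75.

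Of the proteases that can cut IL-33, Gzmb was highest in NK-like cells, at 1442 CPM in the explosion and 1112 CPM in the control library, a ratio of 1.30 (1.16 to 1.45). This lay below the ratio of the median gene of NK-like cells, whose log2 ratio was 0.62. The mast cell proteases Tpsb2 and Cma1 had 1 and 96 UMIs in macrophage-like cells and 0 and 113 UMIs in secretory-like cells, explosion and control, where their source was not tested. The 8 nuclear and damage-linked companions of IL-33, such as Hmgb1, had list medians below that of all genes in all 12 classes, by 0.11 to 1.43 log2 units, and in 11 of 12 with at least 500 UMIs per cell. Hmgb2 had a ratio of 1.34 (1.12 to 1.59) in NK-like cells, Cirbp one of 1.08 (0.807 to 1.43) in B-like cells, Sap30 one of 0.677 (0.322 to 1.30) in T-like cells and S100a8 one of 0.638 (0.445 to 0.905) in monocyte-like cells. The Hmgb2 ratio was not above that of the NK-like median gene. All classes share the same 2 libraries, so an order that returns in every class is 1 observation of these libraries.

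Genes were ranked by how alike their levels over the 12 classes were to those of Il33. Taking the lower of the correlations in the 2 libraries (Pearson r of log2(CPM + 10), over 12 classes that share their libraries, among 12057 genes), Hspg2, which encodes the basement membrane proteoglycan perlecan, came first (r = 0.966 in explosion, 0.959 in control), followed by the protease gene Prss23 (0.944 and 0.939), the Wnt receptor Fzd4 (0.914 and 0.915), the ephrin Efnb1 (0.916 and 0.913) and Dlc1 (0.974 and 0.895). For Il1rl1 these were Hpgds (0.964 and 0.981), Il2ra (0.945 and 0.918), LOC108353429 (0.918 and 0.946), Odc1 (0.904 and 0.927), the first enzyme of polyamine synthesis, and LOC102547807 (0.903 and 0.944). The last had 3 UMIs in the ILC2-like cells of each library. Il33 and Il1rl1 themselves had r = -0.42 in the explosion and -0.21 in the control library. Areg was most like genes that were highest in type 2 alveolar-like cells. These were Pla2g1b (0.859 and 0.841), Dram1 (0.839 and 0.881), Ly6i (0.836 and 0.838), S100g (0.829 and 0.843) and Slc34a2 (0.832 and 0.821), the phosphate carrier of type 2 alveolar cells. Dram1 was also found in monocyte-like cells, at 84.4 CPM in explosion and 131 CPM in control. Areg had 2 explosion and 14 control UMIs in type 2 alveolar-like cells, so its likenesses rest on few counts. Among the 12 compared classes, ligand and receptor were thus highest in different cells in both libraries: Il33 in endothelial-like and fibroblast-like cells, and Il1rl1 in ILC2-like cells.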

How the data were processed

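The 2 libraries of rat lung cells, 1 explosion and 1 control, were read as deposited matrices of raw UMI counts, 1 row per gene and 1 column per barcode, written by cellranger 7.1.0 per the file headers. Of upstream tools, bcl2fastq 2.20 and Cell Ranger 6.1.1 appear in the submitters' processing notes, as do 2 genome builds (rn6, mRatBN7.2) with no role stated. Which gene annotation was counted is likewise not given. Barcodes with under 200 genes (192 explosion, 21 control) or over 25% mitochondrial UMIs (8 and 12) and Scrublet doublets (597 and 1853; scanpy 1.11.5) were removed. Counts were scaled to 10000 and logged; 2000 variable genes without the 8 genes reported, a graph of 15 neighbours on 30 components, split by Leiden (python-igraph 0.11.9) at resolution 1, gave 36 clusters, without batch integration. Cells of clusters named T, NK or ILC2 (3933) were clustered again, a step chosen after the data were seen, as was the rule that an ILC2 name needs Il17rb, Hpgds or Ptgdr2. Names rest on 236 markers of 21 classes (229 found). At least 3 had to be at least 2-fold over the median of clusters first assigned to other classes, in at least 5% of the cluster's cells. A name was dropped where the 10 leading genes held more markers of another class than of its own, or 3 or more cycling genes. It was also dropped at low depth with no own marker among the leading genes. In all, 7 clusters stayed unnamed.

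UMIs were summed per class and library. CPM has exact Poisson intervals, shares have Clopper-Pearson intervals, and ratios, explosion over control, the exact conditional interval of 2 Poisson counts (scipy 1.17.1), tested on simulated data. A count of 0 is given as the limit of 3 counts. The class median covers genes that reach 20 UMIs in each library, a stricter limit in the smaller explosion totals, which can raise it. Calls at 2-fold and list medians use genes with at least 10 UMIs in the class, with 0.5 counts added, and at least 4 genes per list. The 8 genes, the 9 lists (112 of 113 genes found) and the markers were chosen with earlier results of these data known. Named genes are the 8 genes and, per list, the 2 genes of highest and the 2 of lowest ratio out of those reaching 30 UMIs, each read in the class of its highest control CPM, plus the receptors and signals set beside a member; the clusters named were chosen after their values were seen. Pattern genes had at least 200 control and 30 explosion UMIs. UMIs of PCR copies are merged, so the intervals cover sampling of molecules only.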

Additional observations from a re-analysis of the deposited data

Results flagged for a closer look

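The ratio of Il33, explosion over control, differed in direction between classes of the same 2 libraries, and this difference was not tested. It was 0.321 in fibroblast-like, 0.688 in blood endothelial-like and 0.553 in macrophage-like cells, and 1.52 in mesothelial-like and 2.76 in secretory-like cells, each with an interval that excludes 1. Relative to the class median, the log2 ratio was -0.0147 (-0.31 to 0.28) in mesothelial-like and -0.20 (-1.44 to 0.83) in secretory-like cells, while the first 3 ratios stayed below 1. Secretory-like Il33 rested on 8 explosion UMIs, at a level whose interval overlapped that of B-like cells. In the control library it lay below B-like cells. Several of these directions did not hold within clusters. In mesothelial cluster 9 the ratio was 0.397 (0.257 to 0.640), from 24 control UMIs in 8 of 47 cells, and in cluster 8 it was 0.674 (0.0170 to 3.79), from 1 explosion UMI. The only secretory cluster with UMIs in both libraries gave 0.133, but its 6 control UMIs came from 1 cell, against 8 explosion UMIs in 7 cells. The fibroblast-like and endothelial-like classes are 1 cluster each here; at resolution 2 both endothelial clusters lay above 1 (2.43 and 1.17), and the fibroblast cluster with nearly all Il33 stood at 0.582. In macrophage-like cells 4 of 6 clusters lay above 1 and 2 below.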

How the results depend on the processing

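No paired analysis was possible because each group has 1 library and no result comes from a test over samples. All values here are log2 ratios, explosion over control. Over the alternatives, 89 values for the main results stayed within their counting error, 28 moved and 10 reversed; of the others 204 stayed, 10 moved and 2 reversed. Il33 in mesothelial-like cells (0.60) reversed to -0.0147 relative to the class median, to -0.0904 at resolution 2, to -1.86 with a per-cell marker gate in place of clusters and to -1.64 with cluster 32 counted in, an alternative added after the data were seen. Single clusters of resolution 2, also added then, reversed it to -0.41 and -2.19 in mesothelial-like cells and reversed endothelial-like Il33 (-0.54) to 1.28 and 0.23, while fibroblast-like Il33 was -0.78 in one and -2.29 in the other, the second from 1 UMI per library. Il33 in secretory-like cells reversed to -0.20 relative to the class median and to -0.18 with the gate. Gata3 in T-like cells reversed to -0.18 relative to the class median, and Il2ra in ILC2-like cells to -1.11 without the second clustering, also added later, which leaves 1 explosion UMI. The causes of these reversals were not tested.

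Values that moved without reversing were as follows. With at least 500 UMIs per cell, T-like cells gave 2.78 for Il1rl1, 0.26 for Gata3 and 0.19 for Il2ra. With doublets kept, Il33 was -0.21 in endothelial-like, -1.10 in fibroblast-like and 0.22 in mesothelial-like cells. Thinned to 500 UMIs, Il33 was -1.02 in endothelial-like and -0.77 in fibroblast-like cells, Il1rl1 2.68 in ILC2-like and 1.69 in macrophage-like cells, and Gata3 and Il2ra 0.11 and 0.29 in T-like cells. Without Scgb1a1, ribosomal RNA and ribosomal protein genes in the total, Il1rl1 was 1.95 in ILC2-like cells and Gata3 0.23 in T-like cells. Relative to the class median, Il33 was -1.29 in endothelial-like and -1.51 in macrophage-like cells, Il1rl1 1.39 in macrophage-like and Il2ra 0.17 in T-like cells. With the per-cell gate, ILC2-like cells gave 2.65 for Il1rl1, 1.27 for Gata3 and 1.73 for Il2ra, and fibroblast-like cells -1.32 for Il33. Without the second clustering, ILC2-like cells gave 2.69 for Il1rl1 and 1.48 for Gata3, and T-like cells 1.46 for Gata3 and 2.15 for Il2ra. Lower Il33 in fibroblast-like cells and higher Il1rl1 in ILC2-like cells kept their direction under every alternative run. Without the second clustering the Il1rl1 value rests on 16 UMIs in 7 explosion cells. With log2(CPM + 1), of the 5 genes most like each, 1 was shared with the genes named for Il33, 4 for Il1rl1 and 2 for Areg. Depth limits Il5, Il13 and Il4. With 1 library per group, the exposure and everything else that differed between the libraries cannot be told apart.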

Other observations

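Cells named neutrophil-like, too few to compare, held 6 Il1rl1 UMIs in 2 of 27 explosion cells and 2 UMIs in 2 of 304 control cells; the cluster also held explosion cells with mast and basophil markers. The unnamed cluster 23, of cycling cells, held 49.0 CPM of Il1rl1 and 63.7 CPM of Gata3 in the explosion library, against 13.6 and 6.82 CPM in the control library. Cluster L11, led by Ccr6, held 1 Gata3 UMI in 18 explosion cells and 10 UMIs in 33 control cells.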
